A study of Oryzias latipes with 4 samples.

Results

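The genes described here encode the proteins of tight junctions and gap junctions in the forebrain and pituitary of medaka (Oryzias latipes) females, a small fish whose breeding follows day length. They were chosen by the protein name of the best BLAST hit in the deposited expression table, which had to begin with claudin, occludin, tight junction protein, junctional adhesion molecule or gap junction. This gave 95 genes of the 20898 that the table names: 45 claudin genes, 13 genes of occludin, the ZO (zonula occludens) proteins and the junctional adhesion molecules (JAMs), and 37 connexin genes. The gene of gap junction alpha-1 protein (LOC101170140) was left out by the same rule.

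Tight junctions seal the space between neighbouring cells. Claudins are the membrane proteins that form the seal and decide which ions pass, occludin sits beside them, JAMs are adhesion molecules of the immunoglobulin family, and ZO proteins tie all of these to the actin skeleton inside the cell. In the brain they close the vessel wall and other linings, and certain claudins also seal layers of myelin. Gap junctions do the opposite: connexins form channels that join the interiors of neighbouring cells, as electrical synapses between neurons and as coupling between glial cells.

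All fish were females from a local dealer, kept at first under short days (SD). The control group stayed there, the other went to long days (LD), and both were sampled 16 h after the switch. Each sample was a block of ventral telencephalon, hypothalamus and pituitary, with 6 fish per condition and 2 libraries per group, named SD 1, SD 2, LD 1 and LD 2. The sources used here do not state the day lengths in hours, the strain, the age or how fish were pooled, so the spread between libraries may be partly technical.

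Values are in FPKM, the fragments of a feature divided by its length and by the number mapped in the library. FPKM does not show the depth of a library, but its smallest steps do in part. By the most frequent product of FPKM and feature length, SD 1 was the shallowest library, and the others had 1.09 to 1.47 times its depth, with SD 2 the deepest. The number of features above 0 was largest there too, 39789 against 37506 to 37823 elsewhere. Between 6.51% and 6.80% of the values above 0 lay below that step, so read counts were not recovered and counting intervals are left out. The labelled tissue was met by its markers, since all 11 neuron genes and all 14 pituitary genes matched had a mean of at least 1 FPKM. A block of tissue cannot tell fewer cells of a type from less RNA per cell.

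Most of the claudins and connexins were at low levels or at 0 in this tissue. The level needed for a test, 1 FPKM or more as the mean of all 4 libraries, was reached by 15 of 45 claudins, 10 of 13 genes of the occludin, ZO and JAM group, and 8 of 37 connexins, or 33 genes in all. Of the other 62, 29 had a mean from 0.1 to under 1 FPKM and 18 were listed at 0 in all 4 libraries (12 claudins, 1 JAM gene and 5 connexins). The 6 most abundant genes of a family held 71.5% of the summed FPKM of claudins, 79.2% of that of the occludin, ZO and JAM group and 89.6% of that of connexins. Just under the level for a test were the ZO-3 gene LOC101162919 (mean 0.994 FPKM) and a claudin-15 gene (LOC101168738, 0.936), and just above it were a Cx32.2 gene (LOC101173030, 1.01) and a claudin-4 gene (LOC101159933, 1.15).

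**Figure D1:**
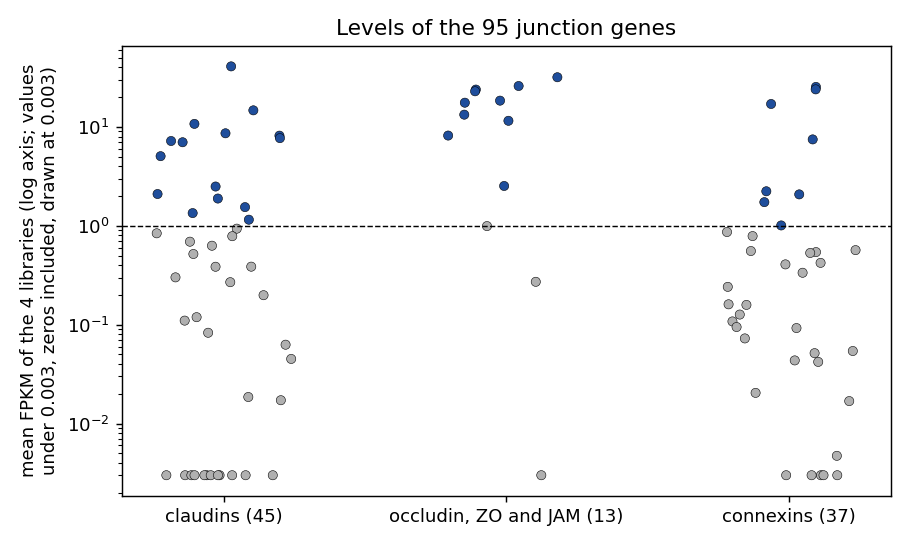
Mean FPKM of each of the 95 junction genes over the 4 libraries, on a log axis, by family. Each point is 1 gene, blue where its mean reached 1 FPKM (dashed line) and grey below it. Claudins and connexins spread from 0 to the upper end of the axis, while 8 of the 13 genes of the occludin, ZO and JAM group stand at 10 FPKM or more.

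The comparison asks whether junction genes differ between fish moved to long days and fish kept under short days. None of the 33 genes tested passed the threshold, an adjusted p of 0.05 from limma on log2(FPKM + 1) with adjustment over all 17030 genes and features tested, of which 1 passed (0.00587%). The smallest limma adjusted p of a junction gene was 0.712. An unadjusted p under 0.05 was found for 5 genes (15.2% of those tested), against 6.34% of all genes and features. These were 2 claudins with higher values in LD, and 2 claudins and 1 connexin with lower values. The groups did not overlap for 12 of the 33 genes, with LD higher for 4 and lower for 8, or 12.1%, 24.2% and 36.4% together, against 16.4%, 20.9% and 37.2% of all genes and features. The median log2 change was -0.04 for the 33 genes and -0.01 for everything tested. The shares without overlap lay near the background, and the share at the unadjusted p rests on 5 genes, 1 of which (LOC101159933) reached the level for a test only through its LD values. The genes with the largest differences were claudins, described first.

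**Figure D2:**
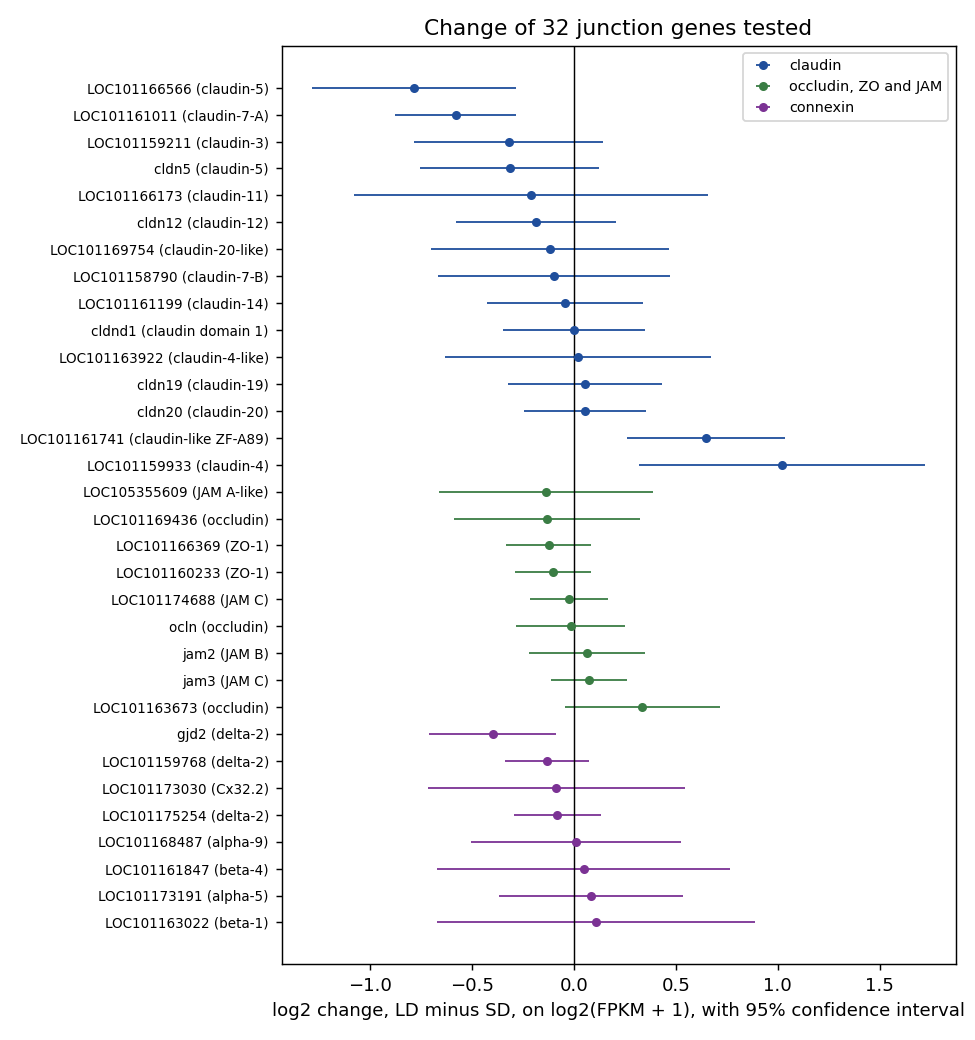
Log2 change (LD minus SD, on log2(FPKM + 1)) of 32 of the 33 junction genes tested, each with its 95% confidence interval from limma, ordered within each family. The largest differences are those of claudins, from -0.78 for a claudin-5 gene to 1.02 for a claudin-4 gene, and the intervals of 5 genes exclude 0.

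Claudin-5 is the main claudin of the vessel wall in the vertebrate brain, where it closes the barrier between blood and brain. The table names a pair of genes of that description, and both had lower values in LD. The more abundant one, LOC101166566 (chromosome 12, 2092803 to 2093450, plus strand), stood at 9.47 and 9.16 FPKM in SD 1 and SD 2 and at 6.24 and 3.97 in LD 1 and LD 2. The SD libraries lay close together and the LD libraries lay apart from each other, with LD 2 the lowest, and the groups did not overlap. The means were 9.32 ± 0.221 FPKM in SD and 5.10 ± 1.60 in LD (standard deviation, n = 2 each), 1.83-fold lower in LD. The log2 change of -0.78 had a standard error of 0.20 and a 95% interval from -1.28 to -0.28, and the gene did not pass the threshold (limma adjusted p = 0.782, range over the alternatives 0.466 to 0.862). The log2 change was -0.51 without LD 2 and -1.05 without LD 1.

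The other gene, cldn5 (chromosome 9, 6345702 to 6346349, plus strand), was at 1.94 and 2.47 FPKM in SD, against 1.48 and 1.66 in LD. Its groups did not overlap either, with a log2 change of -0.31 (standard error 0.17, interval -0.75 to 0.13, limma adjusted p = 0.800). An unnamed feature, MEDAKA004810, spans this gene from 6345480 to 6346488 at a much higher level, and was looked at after its values were seen. It stood at 26.7 and 23.1 FPKM in SD, against 21.3 and 16.0 in LD, again without overlap, with a log2 change of -0.41 (standard error 0.16, limma adjusted p = 0.783). How reads were shared between the named and the unnamed feature is not stated, so the level of cldn5 is uncertain.

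Markers of the vessel lining gave a mixed picture beside these values. Of 22 endothelial genes matched, 17 were tested and none passed. The groups were apart with LD lower for 6 of them (35.3%, against 20.9% of everything tested) and higher for 2 (11.8%, against 16.4%). The lowest LD values relative to SD were those of robo4, a receptor of vessel cells, at 12.3 and 18.7 FPKM in SD, against 8.90 and 11.7 in LD (log2 change -0.53), and of a gene of plasmalemma vesicle-associated protein (LOC101163275), at 14.4 and 11.2 against 9.10 and 7.97 (log2 change -0.53), the one endothelial gene with an unadjusted p under 0.05. Some genes of the list differed less or went the other way. The highest log2 change was that of mfsd2a, a lysophosphatidylcholine transporter, at 0.262. The glucose transporter genes LOC101173640 and LOC101159343 had 0.099 and 0.033. The other gene of plasmalemma vesicle-associated protein, plvap, had -0.066. The groups overlapped for each of these. Of the 17 genes tested, 6 had a log2 change above 0 and the others below. The PECAM-1 genes went both ways, with LOC101159590 lower in LD and LOC101156223 higher, each without overlap. The summed FPKM of the list ran from 226.7 to 259.0 in SD and from 228.5 to 235.7 in LD, so the groups overlapped. Cadherin-5, the adhesion molecule of endothelial junctions, stood at 3.07 and 2.58 FPKM in SD, against 2.23 and 2.69 in LD, and no gene of the list was at 0 in all libraries. The part of vessel cell content in the lower claudin-5 values was not tested.

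Claudins typical of epithelia in other vertebrates were present at differing levels and went both ways. The gene of claudin-7-A, LOC101161011 (chromosome 18, 5675180 to 5681890, minus strand), had the smallest p of all junction genes. It stood at 9.31 and 7.90 FPKM in SD, against 5.53 and 5.28 in LD, a 1.59-fold lower level without overlap. Its log2 change was -0.58 with a standard error of 0.12 and an interval from -0.88 to -0.28 (limma adjusted p = 0.712, range over the alternatives 0.447 to 0.948). The gene of claudin-7-B (LOC101158790) showed no such order, at 1.96 and 3.33 FPKM in SD, against 2.24 and 2.45 in LD. A claudin-3 gene, LOC101159211 (chromosome 13, 3358834 to 3359481), was at 1.59 and 2.07 FPKM in SD, against 1.21 and 1.31 in LD, with a log2 change of -0.32 (standard error 0.18, limma adjusted p = 0.802).

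Higher values in LD were found for a claudin-4 gene and for a gene described as claudin-like protein ZF-A89, a name first given to a zebrafish claudin. The claudin-4 gene, LOC101159933 (chromosome 13, 3378395 to 3378982, plus strand), stood at 0.309 and 0.496 FPKM in SD, against 1.31 and 2.50 in LD. The groups were clearly apart, but the level was low and LD 2 was well above LD 1. Its log2 change of 1.02 had a standard error of 0.27 and an interval from 0.32 to 1.72 (limma adjusted p = 0.782). With a pseudocount of 0.1 the log2 change was 1.95. This gene passed the filter through its LD values, since its SD mean was 0.403 FPKM.

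The ZF-A89 gene, LOC101161741 (chromosome 14, 8790076 to 8790708, minus strand), stood at 4.07 and 3.38 FPKM in SD, against 7.10 and 5.71 in LD, 1.72-fold higher without overlap. Its log2 change was 0.65 with a standard error of 0.15 and an interval from 0.26 to 1.03 (limma adjusted p = 0.782, range over the alternatives 0.635 to 0.948). The genomic span of its feature overlaps that of the claudin-4-like gene LOC101161257 by 711 bases, introns included. Whether exons overlap was not tested. Whether counting used the strand is not stated, so reads of the pair may have been shared.

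Both of these genes lie in tandem arrays of claudin genes. With neighbours less than 50000 bases apart taken as a cluster, 22 of the 45 claudins and 18 of the 37 connexins lay in 14 clusters. The largest cluster holds 8 claudin-3 and claudin-4 genes within 46032 bases of chromosome 13 (3358834 to 3404865). Of these, 3 were listed at 0 throughout, 3 had LD values above all SD values and 1, the claudin-3 gene LOC101159211, had them below. A cluster of 5 claudin genes within 32007 bases of chromosome 14 (8758702 to 8790708) had 3 with LD apart on the higher side and none on the lower. For comparison, LD stood apart on the higher side for 16.4% of everything tested and 15.5% of the genes and features from 0.1 to under 1 FPKM, and on the lower side for 20.9% and 18%. The clusters were picked out after their values were seen and hold too few genes to call this a pattern. How alike the neighbours are in sequence, and whether they shared reads, was not tested.

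The smaller members of these clusters were below the level for a test and are given as values. On chromosome 13, the claudin-4-like gene LOC101160182 stood at 0.487 and 0.429 FPKM in SD, against 0.641 and 0.959 in LD, and LOC101160678 at 0.248 and 0.0871 against 0.312 and 0.557. On chromosome 14, the claudin-3-like gene LOC101160501 stood at 0.0383 and 0.191 FPKM in SD, against 0.362 and 0.950 in LD, and the claudin-4-like gene LOC101161257 at 0.409 and 0.562 against 0.770 and 1.62. In all 4 of these genes LD 2 was the highest library. Outside these clusters, claudin-8 (LOC101173880) stood at 0.193 and 0.479 FPKM in SD, against 0.493 and 0.910 in LD, and claudin-23 (LOC101166151) at 0.0876 and 0.208 against 0.457 and 0.324. Of the 13 claudins with a mean from 0.1 to under 1 FPKM, the groups were apart with LD higher for 6 and lower for 2, where 15.5% and 18% of all genes and features in that range did so.

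**Figure D3:**
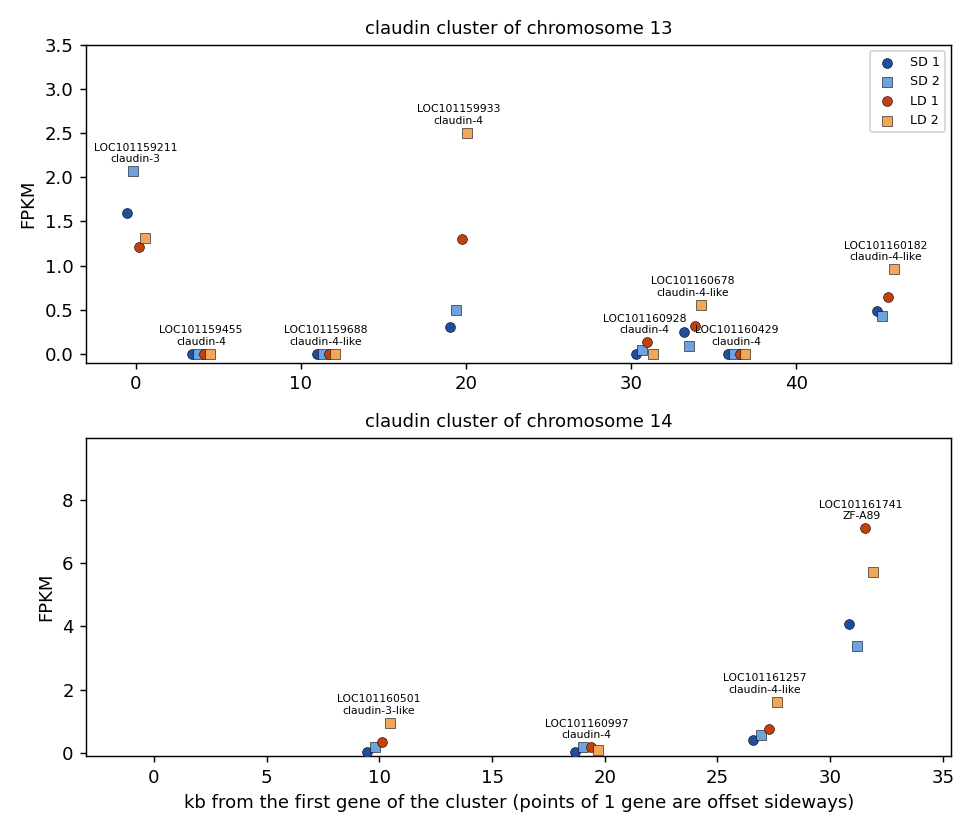
FPKM in each library of the genes in the claudin clusters of chromosomes 13 and 14, by distance in kb from the first gene of the cluster. Each point is 1 library; LOC101163922, the first gene of the second cluster, is left out because nearly all of its summed FPKM came from features elsewhere. LOC101159933 and LOC101161741 have the widest gaps between LD and SD in FPKM, though not in fold, where LOC101160501 (5.71-fold), LOC101160678 (2.60-fold) and LOC101161257 (2.46-fold) exceed LOC101161741 (1.72-fold), and LD 2 is the highest library for LOC101159933, LOC101160182, LOC101160678, LOC101160501 and LOC101161257.

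Epithelial markers overlapped between the groups in their sum, and several were highest in LD 2 as well. The summed FPKM of 36 epithelial genes ran from 437.4 to 468.4 in SD and from 432.1 to 481.6 in LD, and 1 keratin gene (LOC101162974) was at 0. The groups were apart for 2 of the 18 tested in each direction (11.1%, against 16.4% of everything tested with LD higher and 20.9% with LD lower). Of the 33 with a mean of at least 0.1 FPKM, LD 2 was the highest library for 13, as it was for 6 of the 13 low claudins. This was not particular to epithelia. LD 2 was also highest for 8 of 17 skeletal muscle markers and 4 of 10 markers of meninges and fibroblasts, but for 1 of 14 pituitary markers. The share over all genes and features was not counted. A keratin-18 gene (LOC101158252) stood at 1.21 and 1.68 FPKM in SD, against 2.57 and 8.60 in LD, and a keratin-8 gene (LOC101158742) at 0.656 and 1.70 against 1.13 and 5.71, both chosen after their values were seen. Other keratin genes had the opposite order. The more abundant keratin-8 gene LOC101168366 (168.4 and 154.1 FPKM in SD, against 172.8 and 123.6 in LD) and keratin-18 gene LOC101168952 (117.2 and 116.7 against 125.0 and 100.2) were lowest in LD 2, and the keratin-18 gene LOC101156182 was 1.49-fold lower in LD without overlap. EPCAM (LOC101169804), an adhesion molecule of epithelia, stood at 9.18 and 10.8 FPKM in SD, against 10.5 and 9.13 in LD. The part of epithelial cells in the higher claudin values was not tested.

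Claudins linked to myelin in mammals were among the most abundant, and they differed more between the LD libraries than between the groups. Claudin-11 seals oligodendrocyte myelin and claudin-19 is found in Schwann cells in mammals, where gap junction beta-1 protein (connexin 32) also belongs to myelinating cells. The gene cldn19 (chromosome 5, 24422471 to 24433723) was the highest of all 95, at 39.7 and 40.3 FPKM in SD, against 48.2 and 35.8 in LD. Claudin-11 (LOC101166173, chromosome 22) stood at 12.9 and 9.72 FPKM in SD, against 13.8 and 6.53 in LD, and gap junction beta-1 (LOC101163022, chromosome 14) at 7.15 and 6.76 against 10.8 and 5.24. The LD libraries bracketed the SD libraries for all of these, so the groups overlapped completely. LD 1 exceeded LD 2 by 1.35-fold for cldn19, 2.11-fold for claudin-11 and 2.06-fold for gap junction beta-1.

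Myelin markers also had LD 1 highest and LD 2 lowest in their sum. Their summed FPKM (22 genes) was 1396 and 1371 in the SD libraries and 2020 and 1206 in LD 1 and LD 2, so that LD 1 exceeded LD 2 by 1.67-fold. This order is not particular to myelin. The astroglial sum had it too, at 2219 and 2204 FPKM in SD, against 2284 and 2054 in LD. So did the epithelial sum, at 468.4 and 437.4 in SD, against 481.6 and 432.1 in LD. In both of these LD 1 exceeded LD 2 by 1.11-fold. Myelin proteolipid protein (LOC101157800) stood at 397.8 and 368.9 FPKM in SD, against 606.0 and 324.9 in LD, and a myelin basic protein gene (LOC101159204) at 271.9 and 245.1 against 447.8 and 175.3. The genes mpz, mbp and LOC101173447 (myelin basic protein-like) had the same order. Other genes of the list did not. The gene mag stood at 50.1 and 43.8 FPKM in SD, against 61.6 and 47.1 in LD, so LD 2 was not the lowest. A proteolipid protein DM beta gene (LOC101173373), a looser match by its name, stood at 261.1 and 283.9 FPKM in SD, against 286.5 and 304.0 in LD. The gene cnp stood at 19.0 and 21.2 against 20.7 and 20.7. LD 1 was the highest library for 11 of the 21 markers with a mean of at least 0.1 FPKM, and LD 2 for 4. The share of all genes and features with LD 1 highest was not counted. Of the 16 tested, 14 overlapped between groups (12.5% were apart, against 37.2% of everything tested). A gene like myelin-associated glycoprotein (LOC105356074) was at 0. These members were set beside the markers after their values were seen, and 4 libraries are too few for a correlation. Leaving out LD 1 turned the log2 change of cldn19 from 0.05 to -0.16 and that of gap junction beta-1 from 0.11 to -0.35, and leaving out LD 2 turned that of claudin-11 from -0.21 to 0.27.

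**Figure D4:**
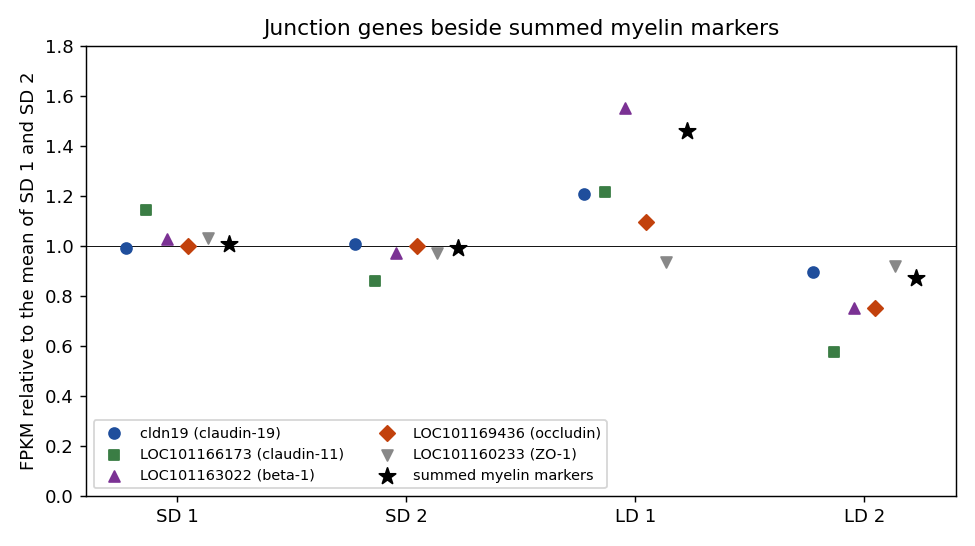
FPKM in each library relative to the mean of SD 1 and SD 2, for cldn19, claudin-11, gap junction beta-1, an occludin gene, a ZO-1 gene and the summed myelin markers. The genes were chosen after their values were seen, and not all junction genes with LD 1 highest and LD 2 lowest are drawn. Each point is 1 gene or sum in 1 library; LD 1 is the highest and LD 2 the lowest for the first 4 genes and the marker sum, with the marker sum at 1.46 and 0.872, while the ZO-1 gene stays between 0.920 and 1.03.

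The remaining claudins above the level for a test differed little. The gene cldn20 stood at 15.6 and 13.3 FPKM in SD, against 16.1 and 14.0 in LD, and cldn12 at 10.4 and 8.11 against 8.71 and 7.28. The claudin domain gene cldnd1 was at 7.43 and 7.93 FPKM in SD, against 8.67 and 6.79 in LD, with a log2 change of 0.00 and an interval from -0.35 to 0.35. The groups of all 3 overlapped. The genomic span of the cldn12 feature, introns included, overlaps that of adam22 by 1309 bases. Whether they share exons or reads was not tested, so the level of cldn12 is uncertain. Of the 24 junction genes named by rule, 7 overlap in genomic span a feature that was not summed with them, which for cldn5 is the unnamed one. A gene described as claudin-4-like, LOC101163922, stood at 10.3 and 6.11 FPKM in SD, against 9.32 and 6.98 in LD, but 37 of its 40 features lie away from the gene and carry 96.7% of this sum. Those features matched the gene over a median of 41 bases. On the gene's own locus the sum was 0.197 and 0.140 FPKM in SD, against 0.240 and 0.507 in LD. Claudin-14 (LOC101161199) and a claudin-20-like gene (LOC101169754) lay between 1.06 and 2.22 FPKM in every library and overlapped between groups. The median log2 change of the 15 claudins tested was -0.10, against 0.02 with no filter on low values and 0.00 among those with a mean of at least 5 FPKM, so the list had no stable direction.

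**Figure D5:**
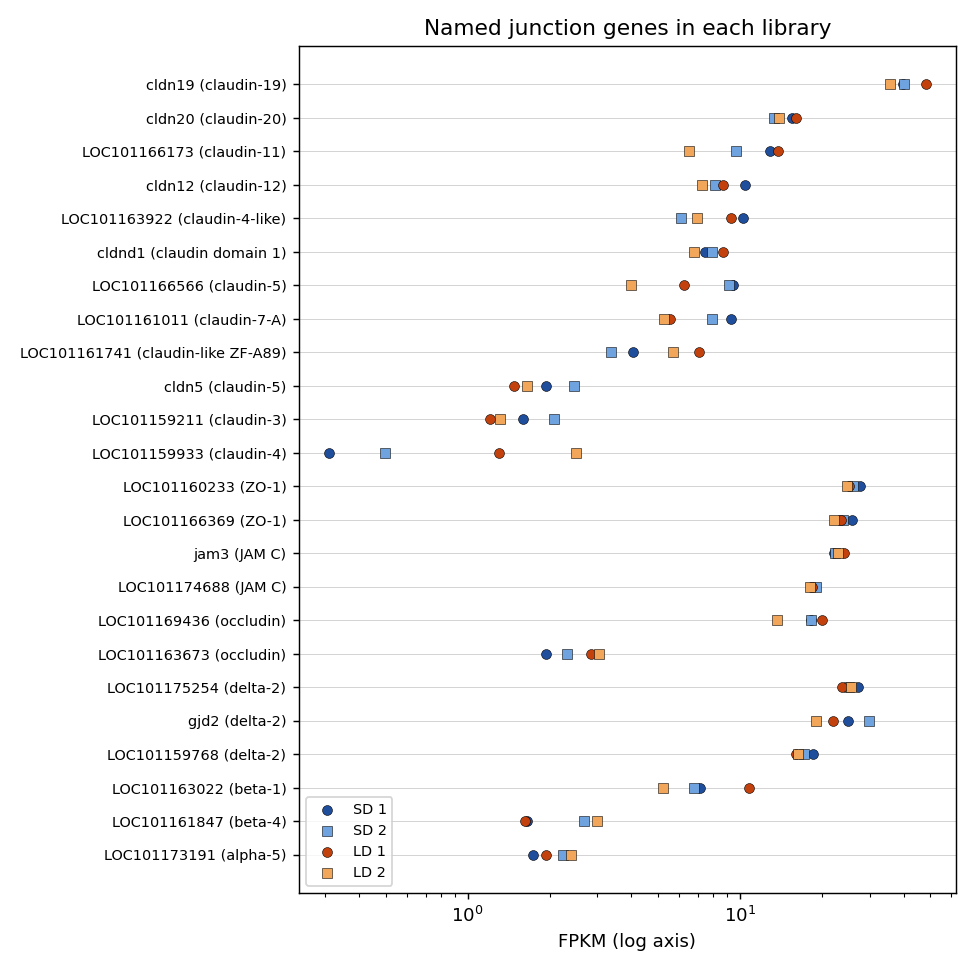
FPKM of 24 named junction genes in each of the 4 libraries, on a log axis, by family and level. Each point is 1 library, and the points of most genes lie close together. LOC101166566, LOC101161011, LOC101161741 and LOC101159933 show the widest gaps between LD and SD points. Narrower gaps without overlap are those of cldn5, LOC101159211, LOC101163673, gjd2, LOC101159768, jam3 and both ZO-1 genes.

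Genes of the tight junction scaffold and its adhesion molecules differed little between the groups. The ZO proteins carry the PDZ domains that bind claudin tails. A pair of ZO-1 genes had slightly lower values in LD without overlap. LOC101160233 stood at 27.7 and 26.1 FPKM in SD, against 25.2 and 24.8 in LD, and LOC101166369 at 25.9 and 24.0 against 23.5 and 22.1. Their log2 changes were -0.10 and -0.12, with standard errors of 0.07 and 0.08 (limma adjusted p = 0.834 and 0.819).

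Both JAM-C genes lay in a narrow range. JAM-C is found at junctions of vessels and of Schwann cells in mammals. The gene jam3 was at 22.2 and 22.5 FPKM in SD, against 24.1 and 23.0 in LD, just without overlap, with a log2 change of 0.07 and an interval from -0.11 to 0.26. A second JAM-C gene, LOC101174688, was at 18.2 and 19.0 FPKM in SD, against 18.4 and 18.2 in LD, with an interval from -0.22 to 0.17. Most of its sum came from a feature that matched the gene over 37 bases (mean 15.2 FPKM). The feature with the longest match was at 3.28 FPKM, so the level of this gene is uncertain. Values of jam2, the JAM-B gene, lay between 10.7 and 12.7 FPKM, and those of a JAM-A-like gene (LOC105355609) between 11.3 and 16.9, both reached within the SD libraries. Both genes overlapped between groups.

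Among the occludin genes the highest, LOC101169436 (chromosome 4), stood at 18.3 FPKM in both SD libraries, against 20.1 and 13.7 in LD, with LD 1 highest and LD 2 lowest as in the sum of the myelin markers. The gene ocln lay between 7.67 and 8.60 FPKM in all libraries. A low occludin gene, LOC101163673 (chromosome 12, 1587815 to 1596256), was at 1.93 and 2.31 FPKM in SD, against 2.83 and 3.04 in LD. Its groups did not overlap, and its log2 change of 0.34 had a standard error of 0.15 and an interval from -0.05 to 0.72 (limma adjusted p = 0.784). The fourth occludin gene, LOC101163521, did not exceed 0.453 FPKM. Over the 10 tested genes of the group the log2 changes ran from -0.14 to 0.34 with a median of -0.02.

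Connexins were led by 3 genes of gap junction delta-2 protein, the fish counterparts of connexin 36, which builds electrical synapses between neurons in vertebrates. The gene gjd2 (chromosome 22, 7535118 to 7536630, plus strand) stood at 25.1 and 29.8 FPKM in SD, against 22.1 and 19.1 in LD. Its groups did not overlap, and the means of 27.5 ± 3.38 and 20.6 ± 2.13 FPKM (standard deviation, n = 2 each) differed 1.33-fold. The log2 change was -0.40 with a standard error of 0.12 and an interval from -0.71 to -0.09 (limma adjusted p = 0.782, range over the alternatives 0.671 to 0.948). LOC101159768 (chromosome 14, 16382523 to 16401155) stood at 18.5 and 17.3 FPKM in SD, against 16.1 and 16.4 in LD, with a log2 change of -0.13 and an interval from -0.34 to 0.07. LOC101175254 (chromosome 13, 17960523 to 17979295), at 27.2 and 25.2 FPKM in SD, against 23.7 and 25.6 in LD, overlapped between groups, with an interval from -0.30 to 0.13. The mean log2 values of all 3 were lower in LD. Of the 11 neuron markers, 10 had a log2 change above 0, as did 7889 of the 17030 genes and features tested. Some of these changes were very small, such as 0.01 for elavl3, and snap25, the most abundant marker, had -0.01. Others were larger, such as that of a synapsin-1 gene (LOC101163826), at 53.8 and 56.0 FPKM in SD, against 61.9 and 65.6 in LD. For 4 of the 11 markers the groups were apart with LD higher (36.4%, against 16.4% of everything tested). With LD lower they were apart for 0 (against 20.9%). The summed FPKM of the neuron markers was 1499 and 1525 in SD and 1548 and 1515 in LD. The part of neuron content in the values of the delta-2 genes was not tested.

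The other connexins tested were low. A gap junction beta-4 gene (LOC101161847) stood at 1.65 and 2.69 FPKM in SD, against 1.63 and 2.98 in LD, and an alpha-5 gene (LOC101173191), of a connexin known from arteries and heart in mammals, at 1.74 and 2.24 against 1.95 and 2.39. The order within each group was the same for both, with the library of replicate 2 the higher, and the groups overlapped. An alpha-9 gene (LOC101168487) and the Cx32.2 gene LOC101173030 lay between 0.622 and 2.14 FPKM and were highest in LD 1. Of 14 connexins with a mean from 0.1 to under 1 FPKM, the groups were apart with LD higher for 2 and lower for 4, against 15.5% and 18% of all genes and features in that range. The connexin left out by the rule, LOC101170140, the gene of connexin 43 that couples astroglia, stood at 188.2 and 176.1 FPKM in SD, against 127.5 and 115.4 in LD and did not pass either (limma adjusted p = 0.443). Every connexin described here was below it in every library.

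Partner proteins of these junctions were taken from a list of scaffolds, polarity proteins, catenins, nectins, angulins and pannexins. Of 86 genes matched, 66 were tested and none passed the threshold; 3 had an unadjusted p under 0.05, all lower in LD (4.55% of the list, against 6.34%). The groups were apart with LD lower for 19 (28.8%) and higher for 8 (12.1%), against 20.9% and 16.4%, and the median log2 change was -0.08. The gene patj, whose product is a scaffold of the Crumbs polarity complex that also binds ZO and claudin proteins, had the smallest p, at 25.5 and 25.1 FPKM in SD, against 20.5 and 20.4 in LD (log2 change -0.29, limma adjusted p = 0.782). Afadin (afdn), which links nectins to actin, stood at 71.0 and 68.9 FPKM in SD, against 62.7 and 60.8 in LD. On the other side, the angiomotin-like gene amotl2 was at 4.17 and 4.87 FPKM in SD, against 9.08 and 5.26 in LD, and a second afadin gene, LOC101167331, at 1.84 and 1.82 against 3.65 and 2.38. Of the 4 most abundant partners, 2 had lower values in LD without overlap. The beta-catenin gene ctnnb1 stood at 121.7 and 116.6 FPKM in SD, against 107.4 and 108.0 in LD (log2 change -0.14, limma adjusted p = 0.784), and a magi2 gene (LOC101173221) at 105.3 and 103.8 against 96.6 and 100.4 (log2 change -0.08, limma adjusted p = 0.835). The groups overlapped for magi1, between 121.0 and 136.4 FPKM, and for a second beta-catenin gene (LOC101171502), between 88.3 and 95.9.

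Pituitary markers differed between the groups beside all of these lower values. Their summed FPKM (14 genes) was 7095 and 7493 in the SD libraries and 4126 and 5645 in LD 1 and LD 2. The groups were apart with LD lower for 7 of the 14 (50%) and higher for 1 (7.14%), against 20.9% and 16.4% of everything tested. One pituitary marker, a somatotropin (growth hormone) gene (LOC101171460), was the single one of everything tested past the threshold, with lower values in LD. The summed FPKM of 5 ependymal and choroid plexus markers was 16.1 and 14.4 in SD and 11.8 and 13.4 in LD. Of the 3 tested, 1 was apart with LD lower (33.3%, against 20.9% of everything tested). This was kcnj13, at 7.94 and 7.03 FPKM in SD, against 4.06 and 5.73 in LD. The groups overlapped for otx2 (2.21 and 1.76 FPKM in SD, against 1.58 and 2.77 in LD). They overlapped too for a forkhead box J1-B gene, LOC101165351 (4.93 and 4.97 against 5.38 and 4.36). The part of pituitary, ependymal or choroid plexus cells in the lower values of claudin-5, claudin-7-A, claudin-3 and gjd2 was not tested.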

How the data were processed

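Messenger RNA was sequenced from 4 libraries of medaka brain, 2 per group, prepared with a stranded TruSeq kit, as the labels' protocols say. The submitters' processing notes list StringTie 1.3.3b and HISAT2 2.0.5 without saying what each did. What the authors deposited was a single table, with FPKM of 93896 features in each library. The sources used here name no genome build, and do not say whether counting used the strand. Coordinates are those of the BLAST hit's coding sequence as the deposited table gives them.

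FPKM values of features sharing a gene name were summed, also where the feature lies away from the named gene (89.0% of the 52142 features with a hit overlap it). Where features cover separate parts of a gene, as for LOC101169436, LOC101174688, LOC101159768 and LOC101175254, the sum can exceed the level of the gene. Features without a hit stayed as they were. The RefSeq gene table of ASM223467v1 holds all 20898 gene names. Units with a mean of at least 1 FPKM (17030) were tested by limma 3.58.1 (R 4.3.3) on log2(FPKM + 1), two-sided, with group as the only term and a trend of variance on mean; Benjamini-Hochberg adjustment used a threshold of 0.05. This scale understates changes of low genes. The fit was also run on simulated data with normal noise and changes planted only in more abundant genes. The outcome is not given here, and such data cannot show how low genes are tested. Tables and plots used Python 3.11.15, pandas 2.3.3 and matplotlib 3.10.9. Depth was read from the most frequent product of FPKM and length.

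Named genes were any past the threshold, the 6 most abundant tested members of each family, and the 5 per direction with the smallest p whose groups did not overlap. For partners, they were the 4 most abundant and the 2 per direction with the smallest p. Marker and partner lists were matched by description and hold some looser matches, such as proteolipid protein 2 and proteolipid protein DM beta. The values of 1 gene that this rule names are not reported here. All other genes given with values were chosen after their values were seen. The members and lists were chosen with earlier results of these data known. Alternatives covered the pseudocount, filters, scaling, variance model, summing, assignment of features, replicate number and each library left out.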

Additional observations from a re-analysis of the deposited data

How the results depend on the processing

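No junction gene and no junction partner was called under any of the 13 alternatives. The median log2 change of the junction genes stayed below 0 under all of them, from -0.12 (without LD 1) to -0.02 (with no filter on low values). For scale, the median log2 level of these genes had a standard deviation of 0.188 between libraries of a group, which is a different measure. The number of junction genes with an unadjusted p under 0.05 changed with the alternative, as did the number tested. The matching shares of all genes and features are not given here, so these numbers are not read as a result. The number whose groups did not overlap was 29 of 77 with no filter, since more genes were counted, and 20 to 25 when 1 library was left out, where non-overlap is easier by construction (67.8% to 70.3% of all genes and features). The share of all genes and features with no filter is not given here, so the 29 genes are not read as a result. Of the recomputed log2 changes of 32 named genes, 386 kept their direction and side of the threshold and 22, of 13 genes, turned in sign, all of them not called. With rows not summed these were -0.0219 for LOC101163922, 0.0126 for LOC101169436, 0.0184 for LOC101174688 and 0.0478 for LOC101173221, each from the most abundant feature alone, and with a pseudocount of 0.1 -0.000957 for cldnd1. When each library was left out in turn, the range was -0.25 to 0.35 for LOC101161847, -0.0364 to 0.20 for LOC101173191, -0.16 to 0.16 for cldnd1, -0.0393 to 0.0777 for LOC101171502, -0.16 to 0.0156 for magi1, -0.31 to 0.35 for LOC101163922, -0.0523 to 0.00425 for LOC101174688, -0.0516 to 0.16 for cldn20, -0.35 to 0.57 for LOC101163022, -0.16 to 0.26 for cldn19, -0.70 to 0.27 for LOC101166173 and -0.39 to 0.13 for LOC101169436. The cause was not tested. LOC101166566, cldn5, LOC101161011, LOC101159211, LOC101161741, LOC101159933, LOC101163673, gjd2, jam3 and both ZO-1 genes kept their direction under every alternative. Their groups did not overlap, so leaving out a library or changing the pseudocount could not turn their sign. Their kept direction is therefore no measure of how firm these differences are. The size for LOC101166566 moved from -0.78 to -0.51 without LD 2.

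Samples of the groups share replicate numbers, but with 2 pairs the numbers do not show a pairing, and the differences between replicates 1 and 2 correlated across genes at 0.04 between the groups. With the replicate number as a block no junction gene was called, 5 had an unadjusted p under 0.05 and the median log2 change was -0.04. The share of all genes and features under 0.05 in that fit is not given here, so the 5 genes are not read as a result. With 2 libraries per group, unknown absolute depth and unstated pooling, differences of the size seen here cannot be told from the spread between libraries, and genes under 1 FPKM have no test.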
